A study of Myzus persicae with 16 samples.

Results

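The set described here holds 150 of the 10489 transcript names on an oligonucleotide array of the green peach aphid, Myzus persicae. Its members were chosen by measured values on 12 of the 16 arrays, as the names that differed most between rearings under solvent while their mean response to the alarm pheromone EBF was small in either rearing. The rule used 3 quantities, each a log2 ratio centred on the array median, averaged over 4 arrays and then over the probes of a name. R is aphids reared on 35S:EBFS plants over aphids reared on Col-0 plants, both under solvent. N is EBF over solvent in Col-0-reared aphids, and H is EBF over solvent in 35S:EBFS-reared aphids. Of 7065 names that were well above background in both channels of those 12 arrays, 4896 had N and H within 0.3 of 0, and the 150 with the largest size of R among them were taken. The 4746 names left over from the 4896 are called the remaining candidates. The last comparison, E, set 35S:EBFS-reared over Col-0-reared aphids with EBF on both, on 4 arrays that the rule did not use. Their direction is unsettled: the values follow the dyes in the labels, which oppose the column name in the authors' deposited table. As labelled, 53 of the 150 names (35.3%) had the sign of R in E, against 54.0% of the remaining candidates. Turned as that column name reads, 97 (64.7%) had it, against 46.0%. No name passed the test in either direction, so the working name of the set, transcripts set by rearing and not by EBF, was not established there, and the set is called by its rule.

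EBF, (E)-beta-farnesene, is the main alarm pheromone of aphids. An attacked aphid releases it in droplets from its cornicles, and neighbours that smell it stop feeding, walk off or drop from the plant. Aphids that live with a constant source of EBF can become habituated, meaning that they no longer show this behaviour. The 35S:EBFS plants carry an EBF synthase gene under the constitutive 35S promoter and make EBF themselves, so aphids on them feed in its presence.

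All aphids were of a red tobacco adapted strain. Their host for 6 months or longer was either Col-0, a wild-type Arabidopsis thaliana, or a 35S:EBFS plant, with a light period of 16 h and a dark period of 8 h. The labels call the Col-0-reared aphids not habituated and the 35S:EBFS-reared aphids habituated. Pools of 50 aphids then received 1 µg of EBF in hexane, or hexane alone as the solvent control, for 30 min. The 4 conditions formed a loop of 4 comparisons with 4 arrays each, and the dyes, Alexa Fluor 555 (AF555) and its red partner AF647, were exchanged on 2 of the 4 arrays. Whole aphids were pooled, so fewer cells of a type and less RNA per cell cannot be told apart, and a rearing difference holds the host plant line together with the EBF it makes. The names on the array are contig numbers of an assembly, the files do not pair them with genes, and 0 matched the RefSeq gene table, so no tissue marker, pathway or gene function could be looked up. Sequences of the probes were not used here.

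The share of probes well above background in both channels ranged from 67.2% to 85.8% over the arrays. Slide 1 held the arrays of N and E, and slide 2 those of H and R, so slide and comparison cannot be told apart. No probe was saturated on slide 1 and 3.0% to 4.22% were on slide 2. A single member had a saturated channel on an array of R, 0.667% of the set against 5.46% of the 7065 names. Which arrays share an RNA extract is not given in the labels. The p-values therefore reflect variation from array to array, which may be technical in part.

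In solvent, most of the set was lower in aphids reared on the EBF-making plants. R was below 0 in 120 of the 150 names (80.0%) and above 0 in 30, where 48.7% of all 7065 names were below 0. The rule used these values, so they are a description and carry no test. Among the 120 lower names R ran from -1.17 to -0.417 with a median of -0.556, a level 1.47-fold lower in 35S:EBFS-reared aphids. Among the 30 higher names it ran from 0.419 to 0.858 with a median of 0.52, or 1.43-fold higher. A difference over 2-fold was seen in 4 names. The last 3 names inside the rule had an R of size 0.419, 0.418 and 0.417, and the first 3 outside it 0.416, 0.416 and 0.414, so the set has no gap at its edge.

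**Figure D1:**
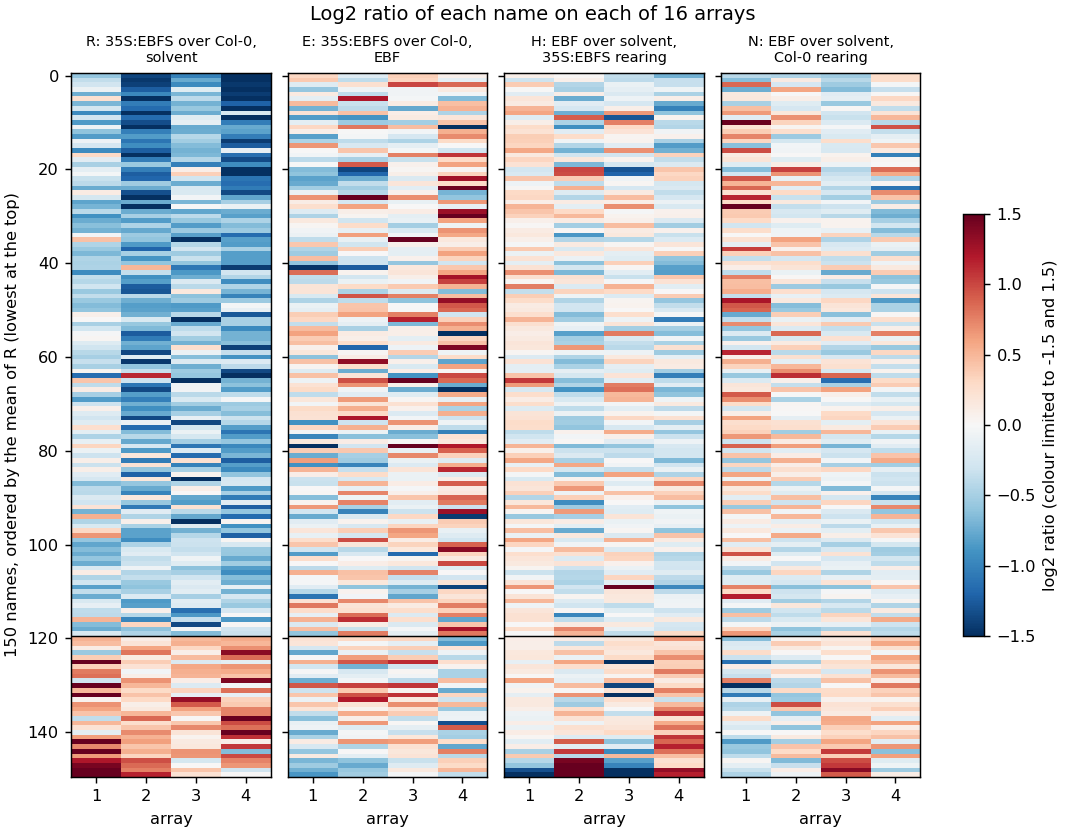
Log2 ratio of each of the 150 names (rows, ordered by R with the lowest at the top) on each of the 16 arrays (columns 1 to 4 in the panels R, E, H and N), with colour limited to -1.5 and 1.5 and a black line between the 120 lower and 30 higher names. The panel of R is blue above the line and red under it, darkest on arrays 2 and 4 among the lower names, and the panel of E does not repeat it.

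The arrays of R varied more in these names than in most. The standard deviation over the 4 arrays had a median of 0.426 in the set and 0.257 over all names. All 4 arrays had the sign of the mean in 100 of the 150 names (66.7%), against 18.0% of all names and 17.1% of the remaining candidates, shares that the choice by size of R itself raises. In 43 names 3 arrays had that sign, and in 7 names fewer did. R exceeded its standard deviation in 102 of the 150 names, against 18.4% of the remaining candidates. The choice by size of R raises this count too.

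The size of R also moved with the dye. Turned so that the sign of R counts as positive, the median over the 150 names was 0.39 on array 1, 0.713 on array 2, 0.444 on array 3 and 0.734 on array 4. Arrays 2 and 4 carry 35S:EBFS-reared aphids in AF555, and arrays 1 and 3 carry them in AF647. In 100 names R was larger in size with AF555 on those aphids, and in 138 both dye orientations gave the same sign. The choice by size of R raises the count of 138. The difference between orientations had a median size of 0.425 in the set and 0.222 among the remaining candidates, and it exceeded 1 in 23 names. The counts of 100, 138 and 23 have no share over other names beside them. The part of the dye in the values of R was not tested. Each comparison has 2 arrays of either orientation, so a constant dye effect cancels in the mean.

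**Figure D2:**
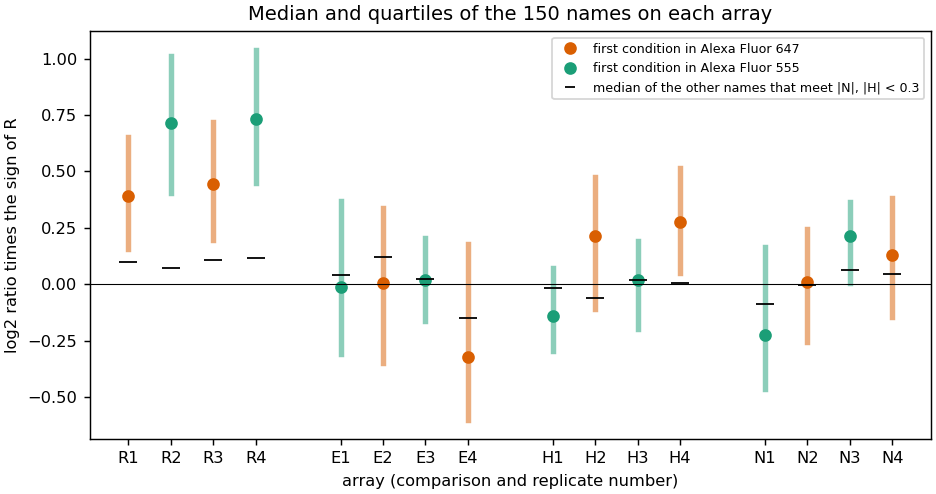
Median (dot) and quartiles (bar) over the 150 names of the log2 ratio times the sign of R on each array, coloured by the dye that carries the first condition, with the median of the remaining candidates as a black dash. The 4 arrays of R lie between 0.39 and 0.734, while 3 arrays of E lie near 0 and array 4 of E, as labelled, lies at -0.323.

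Members were mostly dim. With the 7065 names ranked by signal and split into 4 equal bins, 73 of the 150 fell in the dimmest bin, 32 and 20 in the middle bins and 25 in the brightest. The median processed signal on the arrays of R was 611 in the set and 1404 over all names. The lower names made up 63 of the 73 in the dimmest bin and 16 of the 25 in the brightest. A second probe was present for 65 members, a share of 43.3% against 46.6% of all names. Both probes had the same sign of R in 65 of 65, with r = 0.987 across these names. The choice by size of R, averaged over these probes, raises both values. In E, which the rule did not use, both probes had 1 sign in 63 of 65, with r = 0.953. The probes of a name share their arrays and RNA, so neither is a repeat in other samples.

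The largest values of R belonged to contig375 and contig4415 on the lower side. For contig375 the ratio was -0.58, -1.37, -1.02 and -1.71 on arrays 1 to 4, a mean of -1.17 ± 0.48 (SD, n = 4), or 2.25-fold lower in 35S:EBFS-reared aphids. All 4 arrays lay below 0, and arrays 2 and 4 were the lowest. On its first probe the processed signal was 1538 against 2054 on array 1 and 517 against 2181 on array 4, 35S:EBFS-reared aphids first. For contig4415 the ratio was -0.37, -1.44, -0.75 and -1.93, with a mean of -1.12 ± 0.69 (SD, n = 4). The same 2 arrays were again the lowest.

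On the higher side, contig15072 had ratios of 2.05, 1.16, 0.21 and 0.0094, a mean of 0.86 ± 0.94 (SD, n = 4). The mean was smaller than its spread, and array 1 carried most of it, with a processed signal of 1539 against 377. For contig5405 the ratios were 2.42, 0.76, 0.42 and -0.29, with a mean of 0.83 ± 1.15 (SD, n = 4). Here too the spread exceeded the mean, and array 4 lay on the other side of 0.

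The condition that EBF left these names alone was met by means and seldom by single arrays. N ran from -0.299 to 0.299 with a median of 0.0105, and H from -0.281 to 0.296 with a median of -0.0236, as the rule required. All 4 arrays of N lay within 0.3 of 0 in 14 names, and all 4 of H in 18. Only 2 members (1.33%) stayed within 0.3 on all 8 arrays, against 22.4% of the remaining candidates. In 79 names N had an array above 0.3 and another under -0.3, and in 54 names H did. No share over other names is set beside these counts. The standard deviation over the 4 arrays had a median of 0.392 in N and 0.34 in H in the set. Over all names it was 0.286 and 0.202. The means near 0 were thus averages of opposite single-array values in many members.

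In H these opposite values followed the dye in the most variable names. For contig15072 the ratio of EBF over solvent in 35S:EBFS-reared aphids was -1.86 on array 1, 2.37 on array 2, -2.22 on array 3 and 1.16 on array 4. Its mean, -0.13 ± 2.26 (SD, n = 4), passed the rule. Arrays 1 and 3, with the EBF-treated aphids in AF555, were low, and arrays 2 and 4 were high. For contig5405 the values were -1.32, 1.67, -1.5 and 1.32, in the same order. The difference between dye orientations in H exceeded 1 in 20 members, and its median size was 0.384 in the set and 0.178 among the remaining candidates. In N it was 0.367 and 0.223, with 5 members over 1. The counts of 20 and 5 have no share over other names beside them.

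The comparison E asks whether the rearing difference seen in solvent was also there when both groups were exposed to EBF. Its 4 arrays share no condition with those of R, but each of its conditions is also on the arrays of N or of H, which the rule used. Whether RNA extracts are shared with those arrays is not given in the labels. The values of E are given as labelled, 35S:EBFS over Col-0, and the column for this comparison in the authors' deposited table had r = -0.949 with the direction that its name gives. As labelled, E had the sign of R in 53 of 150 names (35.3%), where 50.0% of all 7065 names and 54.0% of the remaining candidates did. With E turned, 97 names had it, 64.7% against 46.0% of the remaining candidates, so the set lay under its background in one direction and above it in the other. As labelled, of the 120 lower names 41 (34.2%) were below 0 in E, against 57.9% of the remaining candidates with R below 0. Of the 30 higher names, 12 (40.0%) were above 0 in E, against 50.8% of the remaining candidates with R above 0.

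**Figure D3:**
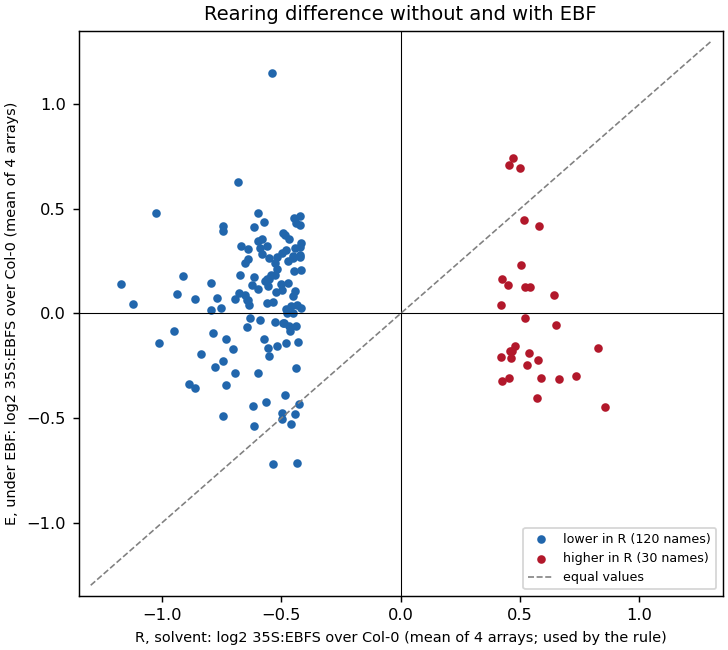
R, the log2 rearing ratio in solvent (horizontal axis, used by the rule), against E, the same ratio under EBF (vertical axis, not used by the rule), for the 150 names, each a mean of 4 arrays, with a dashed line of equal values. E is drawn as labelled. The 120 lower names (blue) have a median E of 0.0911 and the 30 higher names (red) one of -0.16, with both clouds spread across 0.

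The size of E, which does not depend on its direction, had a median of 0.208 in the set and 0.115 among the remaining candidates. Set against its spread it was alike: E exceeded its standard deviation in 14% of the set and in 13.4% of the remaining candidates. That standard deviation had a median of 0.438 in the set and 0.399 over all names. The median size of R in the set was 0.543. As labelled, the median of E turned by the sign of R was -0.0961 (quartiles -0.269 and 0.124) in the set and 0.0167 among the remaining candidates. The lower names had a median E of 0.0911, from -0.719 to 1.15, and the higher names one of -0.16, from -0.449 to 0.746. In 9 names E was at least as large as R in the direction of R, and with E turned in 4. Across the 150 names R and E had r = -0.088 and Spearman's rho of -0.0401, and across the remaining candidates r was 0.0937. These are descriptions across names that share arrays and carry no p.

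Array 4 of E stood apart from the others. Turned by the sign of R, the median over the 150 names was -0.0114 on array 1, 0.00535 on array 2, 0.0177 on array 3 and -0.323 on array 4. The first 3 arrays lay close to 0, with 72, 76 and 78 of the 150 names on the side of R, and array 4 had 47. Among the remaining candidates array 4 was also the lowest, at -0.15. Without it 75 of the 150 names (50.0%) had the sign of R as labelled, where 61.8% of the remaining candidates did, and the median turned by the sign of R was 0.00397. With E turned the same share of the set stood against 38.2%. These values come from a fit with a dye term, in which array 2 weighed as much as arrays 1 and 3 together.

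No name passed the threshold in E. In limma with a dye term, 0 of 7065 names (0%) had an adjusted p under 0.05, with a smallest adjusted p of 0.492, and 0 of the 150 members did, with a smallest adjusted p of 0.611. At an unadjusted limma p under 0.05 there were 534 names (7.56%) and 11 members (7.33%), so the set was close to the background. By direction, 8 of these members (5.33%) had the sign of R, against 2.19% of all names, and 3 (2.0%) had the opposite sign, against 5.36%. All 4 arrays of E had the sign of R in 8 members (5.33%), against 6.06% of all names and 5.44% of the remaining candidates. All 4 had the opposite sign in 16 members (10.7%), against 10.1% and 5.63%. With E turned, each of these pairs of counts by direction changes places.

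The counts of calls depended on single arrays. With 1 array left out, the lone array of its dye orientation adds nothing to the residual. A name's own spread then comes from the other 2 arrays alone. These are arrays 1 and 3 where array 2 or 4 is left out. Where array 1 or 3 is left out they are arrays 2 and 4, and 0 names were called. The counts below are therefore not read as rearing differences. Without array 4, limma called 1130 of 7065 names (16.0%) and 15 members (10%). Without array 2 it called 258 names (3.65%) and 0 members. A joint fit of all 16 arrays called 482 names (6.82%). It takes in the arrays that chose the members, so it is no test of them.

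A missed threshold does not show that rearing made no difference under EBF. The 95% interval of E from limma reached 0.535 to either side of the value at the median in the set. It held the value of R in 62 of the 150 names as labelled, and in 89 with E turned. R was chosen for its size, and no share of the remaining candidates is set beside these counts. They do not show whether R and E were alike.

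The loop gives a second value for each name, since R plus H minus N is, on the log2 scale, the rearing difference under EBF reached through the other 3 comparisons. That sum had the sign of R in 149 of the 150 names, with a median of 0.61 when turned by that sign, as the rule largely fixes. The measured E had a median of -0.0961 as labelled, and the median of the difference was -0.684. With E turned it was -0.559. Among the remaining candidates, turned alike, the sum had a median of 0.0967 and E as labelled one of 0.0167. The direct arrays and the path through the other 3 comparisons thus gave different values for the set. The choice by size of R raises the sum and so widens this gap. The choice, slide, direction and dye were not separated as contributors.

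As labelled, the share with the sign of R in E was lowest where R was largest, and with E turned it was highest there. With the candidates ranked by size of R in groups of 150, the share was 35.3% in the set, 42.7%, 48.0% and 43.3% in the next 3 groups, and between 48.0% and 63.3% in the 6 groups after those.

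**Figure D4:**
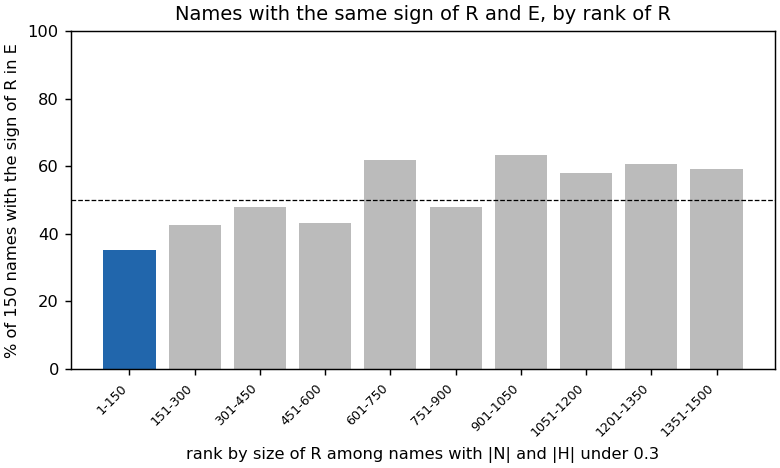
Share of names with the same sign in R and in E (vertical axis, in percent) for groups of 150 candidates ranked by the size of R (horizontal axis), with the 150 members in blue and a dashed line at 50.0%. With E as labelled, the members' bar is the lowest, at 35.3%, and the bars from rank 901 on lie between 58.0% and 63.3%.

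Of the 100 members with 1 sign on all 4 arrays of R, 6 had that sign on all 4 arrays of E as labelled, 2 higher and 4 lower. Among the remaining candidates with 1 sign on all 4 arrays of R the share was 5.67%, so 6 of 100 is near the background. For contig309 R was -0.47, -0.59, -0.59 and -0.83, a mean of -0.62 ± 0.15 (SD, n = 4), and E was -0.59, -0.31, -0.59 and -0.30, a mean of -0.44 ± 0.16 (SD, n = 4). All 8 arrays lay within 1 side of 0 and the means exceeded their spread, the most even pattern among the named members. Its limma adjusted p in E was 0.611.

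The second lower name of this kind, contig4238, was less even. R was -0.15, -0.65, -0.096 and -1.10, and E was -0.045, -0.092, -0.75 and -1.02, a mean of -0.48 ± 0.48 (SD, n = 4; limma adjusted p = 0.769). In either comparison 2 of its 4 arrays lay near 0. Its processed signals on the arrays of R were dim, at 65.8 to 144, where the median over all names was 1404.

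Of the 2 higher names, contig5695 had R of 0.67, 0.086, 0.92 and 0.40, and E of 0.41, 0.19, 0.70 and 0.48, a mean of 0.45 ± 0.21 (SD, n = 4; limma adjusted p = 0.635). It was not well above background on every array of E, with a processed signal of 72.5 in Col-0-reared aphids against 101 in 35S:EBFS-reared aphids on array 1. For contig4017 R was 1.49, 0.61, 0.13 and 0.084, and E was 0.13, 0.66, 0.63 and 0.26, a mean of 0.42 ± 0.27 (SD, n = 4; limma adjusted p = 0.716). Array 1 was the highest of R and the lowest of E.

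**Figure D5:**
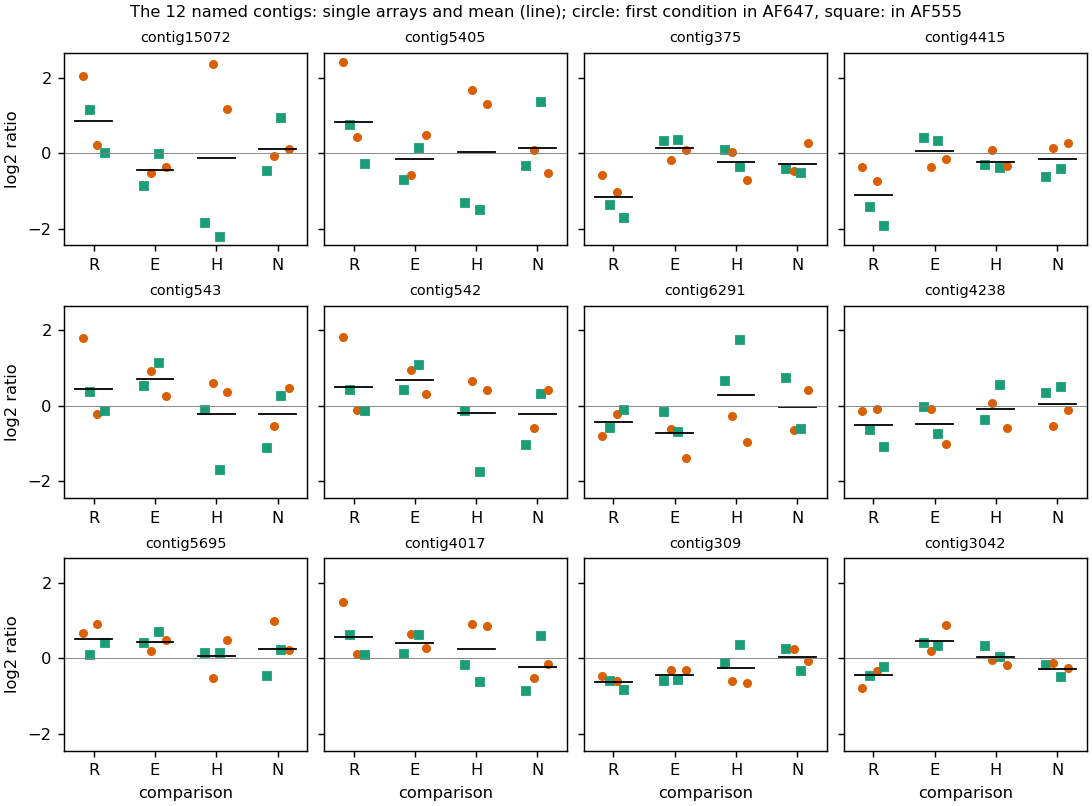
Log2 ratios of the 12 named contigs on single arrays of R, E, H and N, with the mean as a line, orange circles where the first condition is in AF647 and green squares where it is in AF555. The 4 values of contig309 lie under 0 in R and in E, while those of contig15072 and contig5405 in H split by dye between -2.22 and 2.37.

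In E itself, 24 members had 1 sign on all 4 arrays, 16 above 0 and 8 below. Split by R, 5.33% of the set had its sign, against 6.06% of all names and 5.44% of the remaining candidates. The opposite sign was held by 10.7% of the set, against 10.1% and 5.63%. Both shares were near those of all names. The highest of the 24 was contig543, with 0.53, 0.93, 1.12 and 0.25, a mean of 0.71 ± 0.39 (SD, n = 4; limma adjusted p = 0.611). Its R was 1.80, 0.37, -0.21 and -0.14, so array 1 set that mean and 2 arrays lay on the other side of 0. Without array 4 of E the fitted E of contig543 was 0.879. The next, contig542, had E of 0.42, 0.95, 1.09 and 0.32, and R of 1.82, 0.42, -0.12 and -0.13. These neighbours in contig number differed by at most 0.108 on any of the 16 arrays, so they are not counted as separate evidence, and whether they are separate transcripts was not tested.

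The lowest of the 24 was contig6291, with E of -0.17, -0.60, -0.70 and -1.39, a mean of -0.72 ± 0.51 (SD, n = 4; limma adjusted p = 0.627). Its R was -0.81, -0.60, -0.21 and -0.11, below 0 on each array. In H the same name ran from -0.97 to 1.73.

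In 11 of the 100, all 4 arrays of E as labelled had the other sign, 2 with R above 0 and 9 with R below 0, against 8.01% of such remaining candidates. With E turned, these 11 would be the members alike in both comparisons and the 6 the opposite ones. For contig15072 E was -0.88, -0.53, -0.025 and -0.37, a mean of -0.45 ± 0.35 (SD, n = 4; limma adjusted p = 0.736), opposite to its R of 0.86. For contig3042 R was -0.77, -0.46, -0.32 and -0.24, a mean of -0.45 ± 0.24 (SD, n = 4). Its E was 0.42, 0.18, 0.34 and 0.88, a mean of 0.46 ± 0.30 (SD, n = 4; limma adjusted p = 0.689). Both names were picked for opposite signs on all arrays, so the lack of overlap between R and E follows from the choice. Neither passed the test in E.

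Some members were next to each other in contig number. There were 8 such pairs among the 150, all 8 with the same sign of R and 6 with the same sign of E, where 53.7% of the 2551 such pairs among all candidates had the same sign of E. The choice by R raises the share alike in R, so no background is set beside it. The median difference over 16 arrays within a pair ran from 0.0569 to 0.374. How many of the 150 names come from the same transcript was not tested.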

How the data were processed

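Two-colour arrays of 4 comparisons, 4 arrays each, were used. Per the file headers, the scanner files hold fluorescence intensity from Agilent Feature Extraction 10.5.1.1, and the processed intensities are background-subtracted and dye-normalized. The authors' deposited table gives a mean log2 ratio and a p-value per probe, and a deposited value table gives a log2 ratio per array with column medians of -0.02003 to 0.02019. Both entered as alternatives. The submitters' processing notes name limma. Its version and the authors' normalization are not given in the sources used here. By correlation with the scanner files, the columns of N, H and R run as their own names say (the mean of R is named Col-0 over 35S:EBFS), and those of E run against theirs.

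From the scanner files, log2 ratios of processed intensities were centred on each array's median and averaged over the probes of a name. Control spots were left out. E was fitted in limma 3.58.1 under R 4.3.3 on 4 arrays with dye orientation as a term (2 residual degrees of freedom), and p-values were adjusted by Benjamini-Hochberg over 7065 names at a threshold of 0.05. The fit was tested on simulated data. Precision is limited by the number of arrays.

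The members and lists were chosen with earlier results of these data known. Names were printed by rule, at most 2 higher and 2 lower for each comparison: the largest R, the largest E among members with 1 sign on its 4 arrays, the largest in both, and 1 of each sign for the opposite case. The lists of gene families were void, since no name carries a gene. Alternatives were normexp (offset 50) with loess, other filters, the first probe, no dye effect, array weights, all 16 arrays, each array left out, other limits of the rule and turned directions.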

Additional observations from a re-analysis of the deposited data

Results flagged for a closer look

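In 3 of 50 groups of 4 arrays 1 array lay far from the others, where chance gives about 1 in 20. The largest was the median over the 150 names turned by the sign of R, in which array 4 of E was the far one, with a gap to its nearest neighbour of 0.915 of the whole range. For contig375, array 4 of N lay at 0.28 while the others lay between -0.54 and -0.41, a gap of 0.851 of the range. For contig4415, array 2 of H lay at 0.081 while the others lay between -0.39 and -0.31, a gap of 0.83 of the range.

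In 2 named members every array of R had 1 sign and every array of E, as labelled, the other. These were contig15072, with a mean E of -0.449, and contig3042, with a mean E of 0.457. Both were named for this pattern, so it is no separate result. The difference between both comparisons was not tested, since the rule used R.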

How the results depend on the processing

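The limits are the 4 arrays per comparison, the tie of slide and comparison, unknown sharing of extracts and the dim signal of most members. For E, normexp with loess, other filters, the first probe, no dye effect, array weights and both deposited tables left 0 names and 0 members called, with 313 to 671 names at an unadjusted p under 0.05. Fits of all 16 arrays, which take in the arrays of the rule and are no test of members, called 482 names and 1 member, with no block and with the replicate number as a block alike (482 and 1; consensus correlation -0.000138). With signs set to make a common extract correlate above 0, same-numbered arrays were compared by their deviations, with E as labelled. These correlated at 0.413 and 0.463 between N and E and at -0.558 to 0.234 elsewhere. With E turned, the values between N and E and those between E and H (-0.398 and -0.558 as labelled) change sign. Over the 4 comparisons the numbers thus did not pair the arrays in 1 way, and the block's consensus mixes both signs. The cause of the higher count was not tested. In both fits E was 0.0576 for contig5405, -0.177 for contig375 and -0.266 for contig4415, each with its sign reversed.

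Leaving out 1 array gave 0 to 1130 names and 0 to 15 members called. The count of members with the sign of R ran from 51 to 75 and the median turned E from -0.125 to 0.00397. E of contig5405 ran from -0.43 to 0.101 and that of contig4415 from -0.00972 to 0.104. With slide 2 turned, or with E turned as the authors' column name reads (added after seeing the data), 97 members had the sign of R and the median was 0.0961 by construction. Over the 12 named members and 167 alternative values, 155 kept their direction and side of the threshold, 9 reversed and 3 passed it. Those that passed were contig543 without array 4 and contig309 in both fits of all 16 arrays. Both fits gave contig309 the same E, -0.56, and take in the arrays of the rule.

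The choice of members depended on the processing. The rule shared 115 names with the set after normexp and loess, 145 with the first probe and 89 with the wider filter, 71 with a limit of 0.2 on N and H, 70 with 0.5, and 72 to 84 without 1 replicate number. In each of these, R was below 0 in 66.0% to 87.3% of names and E had the sign of R in 50 to 69 of 150.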
